A study of Mus musculus with 34 samples.

Results

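The genes described here encode receptors for interleukins, interferons, colony-stimulating factors, TNF-family ligands and TGF-beta. They were chosen by symbol: every listed gene whose name begins with Il and a number followed by r, or with Ifnar, Ifngr, Csf2r, Tnfrsf or Tgfbr, apart from Il10ra, the gene targeted in the study, and Il1rn, which encodes a soluble antagonist. The prefix also took in Tgfbrap1, whose product is an adaptor that binds TGF-beta receptors and not a receptor itself. The rule itself uses no measured value, but it was set with earlier results of these data known. It found 32 genes among the 9851 listed in any of the 3 deposited tables, and 29 of them were listed in all 3. Il12rb1 and Tnfrsf9 were listed in the first table only and Tnfrsf25 in the rescue table only. Il1r1 and Il1rap are not among the listed genes and were not analysed here.

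Cytokine receptors are built from ligand-binding chains and shared signalling chains. Most interleukin receptors, the interferon receptors and the receptor for granulocyte-macrophage colony-stimulating factor (GM-CSF) have no enzyme of their own and signal through JAK kinases. These phosphorylate STAT transcription factors, with SOCS proteins acting as feedback inhibitors. The IL-17 receptor chains and the IL-1 receptors, among them Il1r2, do not signal this way. TNF receptors recruit TRAF and death-domain adaptors and activate NF-kB, and TGF-beta receptors are serine/threonine kinases that phosphorylate SMAD proteins. Gut macrophages live beside dense microbiota and are held in a quiet state by IL-10 and TGF-beta. The IL-10 receptor pairs the ligand-binding chain Il10ra with Il10rb, which is also a chain of the receptors for IL-22 and type III interferon.

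RNA was measured in 34 libraries of macrophages sorted from the colonic lamina propria of C57BL/6 mice as CD45+ CD11b+ CD11c-intermediate CD64+ cells without Ly6c or CD103. Untreated mice aged 6 to 7 weeks gave the first table, with the groups CXhet and IL10R_colonic of 3 libraries each. In the rescue table, mice of the same age without treatment gave CX (2 libraries), IL10R (5) and IL10R_P19 (4), and mice given antibiotics in their drinking water gave IL10R_abx (4) and IL10R_littermate_abx (3), shortened to littermate_abx below. In the neutrophil table, bone marrow chimeras sampled 4 weeks after chimerism gave wt (4), ko_igg (3) and ko_ly6g (3). The treatment label of that table says that every chimera received anti-Ly6G antibody, which contradicts the igg titles, and groups were taken from the titles. Following the series title, IL10R and ko were read as loss of IL-10Rα in macrophages and P19 as the IL-23 subunit of that name, and abx as antibiotics. The labels do not give the promoter that drives the deletion, the genotypes behind CX, CXhet and the littermates, the meaning of 5C5 in the titles of the rescue table or the host cells left in the chimeras. They also do not say that libraries are from different animals, and the p-values below therefore reflect variation among libraries, which may be technical.

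Depth was 1458726 to 2487074 reads of listed genes per library in the first table, 747046 to 2775974 in the rescue table, and 1028567 to 4525047 in the 8 libraries of the neutrophil table whose reads were used. Values below are normalised values, that is reads of a gene divided by 1 factor per library, and can be compared between libraries of a table but not between tables or between genes. Il10ra stood at 371 to 689 in CXhet and at 9.26, 361 and 65.9 in IL10R_colonic 1 to 3, so the library labelled IL10R_colonic 2 went against its label. It was 247 to 284 in CX and 138 to 191 in littermate_abx, and at most 31.2 in every library titled IL10R, IL10R_P19 or IL10R_abx. In the neutrophil table it was 247 to 828 in wt and 32.2 to 111 in the ko libraries. The sorted cells' macrophage markers were present throughout: 11 of 13 were listed in each table and none of the 11 was at 0 in all libraries of a group, while 12 of 13 T, NK and innate lymphoid markers are not listed in the first and rescue tables. All 12 epithelial markers were also present. Their summed share of the listed signal, set against that of the macrophage markers, separated groups and single libraries. In the rescue table macrophage markers made up 0.755 to 1.03% of the signal in IL10R, 0.977 to 1.46% in IL10R_P19, 1.73% in both CX libraries, 2.1 to 2.7% in IL10R_abx and 2.38 to 2.72% in littermate_abx. The epithelial share was 1.14 to 1.60% in the 3 groups without antibiotics and 0.213 to 0.398% in both groups with them. Library wt 1 stood apart from wt 2 to 4, with 2.84% macrophage markers against 0.988 to 1.31%. IL10R 27 held 0.0908% neutrophil markers, the highest share of the rescue table, and IL10R_P19 100 the lowest macrophage share of its group.

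**Figure D1:**
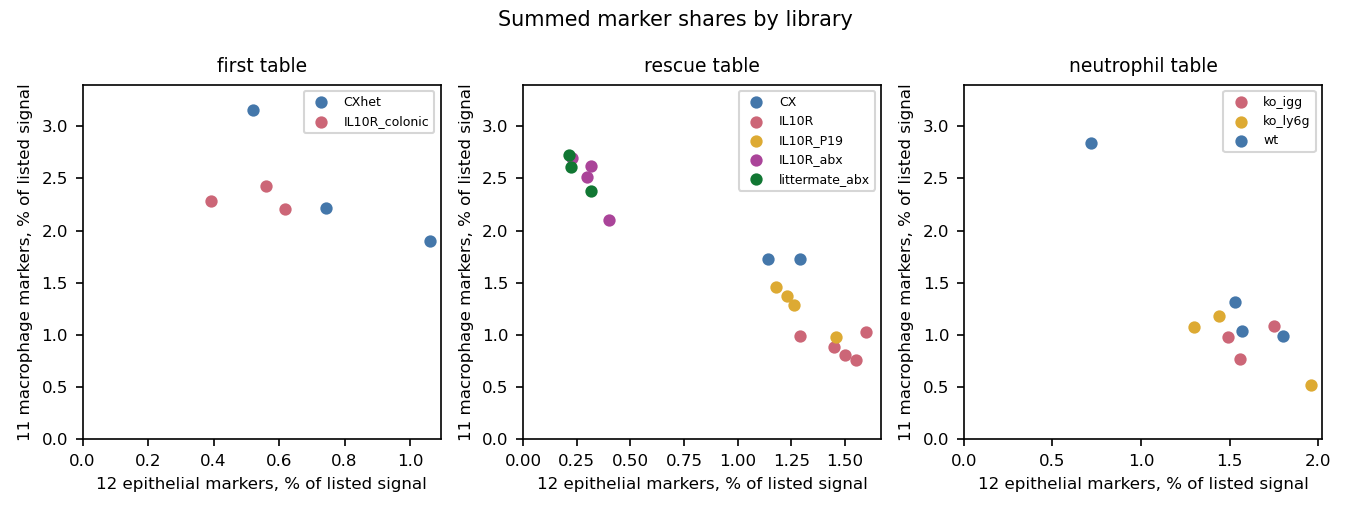
Summed share of 12 epithelial markers (x axis, percent of listed signal) and of 11 macrophage markers (y axis, percent of listed signal) in each library of the 3 tables, 1 point per library, coloured by group. Both antibiotic groups of the rescue table lie at 0.213 to 0.398% epithelial and 2.1 to 2.72% macrophage signal, away from the other 3 groups, and wt 1 lies above the other wt libraries at 2.84% macrophage signal.

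The first comparison set IL10R_colonic against CXhet macrophages. Il2rg, the common gamma chain shared by the receptors for IL-2, IL-4, IL-7, IL-9, IL-15 and IL-21, and Il3ra, the IL-3 binding chain, rose. Il17re, the IL-17C binding chain, and Tgfbrap1 fell. These 4 of 27 tested receptor genes passed the test (adjusted p under 0.05), 2 higher and 2 lower, beside 8.69% of all 6766 tested genes, 4.57% higher and 4.12% lower. At an unadjusted p under 0.05 there were 9, beside 26.3% of all genes, and the libraries of the groups did not overlap in 13, beside 32.4%. The median change of the 27 was -0.04 on the log2 scale, against 0.00 over all tested genes.

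Il2rg stood at 574, 387 and 236 in CXhet 1 to 3 and at 1112, 1734 and 1244 in IL10R_colonic 1 to 3. Every IL10R_colonic library lay above every CXhet library, and the lowest was close to double the highest CXhet value. The log2 change was 1.83 (SE 0.33, n = 3 and 3, limma adjusted p = 0.0114). Il3ra stood at 35.9, 28.0 and 25.0 and at 87.3, 145 and 97.7 in the same libraries, again without overlap, and its log2 change was 1.83 (SE 0.28, limma adjusted p = 0.00633). Genes with a mean up to 53.2 over all libraries of the table were filtered out as low. The mean of Il3ra was 29.6 in CXhet and 110 in IL10R_colonic, so it was tested only through the group where it was high. The other chains of the IL-3 and GM-CSF receptors moved less. Csf2ra, which binds GM-CSF, changed by 0.53 (SE 0.27), Csf2rb, the common beta chain, by 0.09 (SE 0.22), and Csf2rb2, a beta chain specific to IL-3 in mice, by 0.90 (SE 0.25), and none passed the test. Csf2rb and Csf2rb2 are neighbouring near-identical genes, and how reads were divided between them is not given, so their separate values are uncertain.

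Il17re stood at 75.2, 98.8 and 136 in CXhet and at 50.2, 24.6 and 34.1 in IL10R_colonic, with the highest deficient library below the lowest control library. Its log2 change was -1.49 (SE 0.33, limma adjusted p = 0.0264). Il17re passed the filter on low values only through CXhet, with a mean of 103 there and 36.3 in IL10R_colonic. Tgfbrap1 stood at 138, 142 and 113 against 75.4, 76.4 and 56.5, also without overlap, a change of -0.91 (SE 0.21, limma adjusted p = 0.0292). Tgfbr2, the ligand-binding TGF-beta receptor kinase, lay at 518, 435 and 364 against 286, 133 and 245. All 3 of its IL10R_colonic values were below the CXhet values, but the change of -1.04 (SE 0.29) missed the threshold (limma adjusted p = 0.0590). Tgfbr1, its signalling partner, changed by -0.09 (SE 0.24) with overlapping libraries.

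Il15ra, Il12rb1, Il22ra1 and Tnfrsf9 had means below the filter on low values and were not tested in the fit that gives the counts. Il15ra, which presents IL-15, stood at 15.4, 15.8 and 18.1 in CXhet and 67.4, 110.1 and 89.4 in IL10R_colonic, every one far above the highest control value. Il12rb1, a chain shared by the IL-12 and IL-23 receptors, stood at 5.13, 4.66 and 0 against 51.6, 63.5 and 57.7. Tnfrsf9, the costimulatory receptor 4-1BB, stood at 0, 0 and 2.78 against 14.6, 62.2 and 30.6. In all 3 genes the groups did not overlap, and since no CXhet library held more than 3 reads of Tnfrsf9, its fitted change below depends on the pseudocount. Il12rb1 and Tnfrsf9 were near 0 in CXhet and were listed in no other table. They may have been listed only through their IL10R_colonic values, so their separation and adjusted p are no independent support for a rise. In a fit without the filter Il15ra rose by 2.32 (SE 0.28, limma adjusted p = 0.00181), Il12rb1 by 3.99 (SE 0.66, limma adjusted p = 0.00679) and Tnfrsf9 by 4.05 (SE 0.79, limma adjusted p = 0.0141). Il22ra1, the IL-22 binding chain of epithelial cells, was 12.0, 19.6 and 27.8 against 17.2, 11.7 and 22.4, with overlapping libraries.

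**Figure D2:**
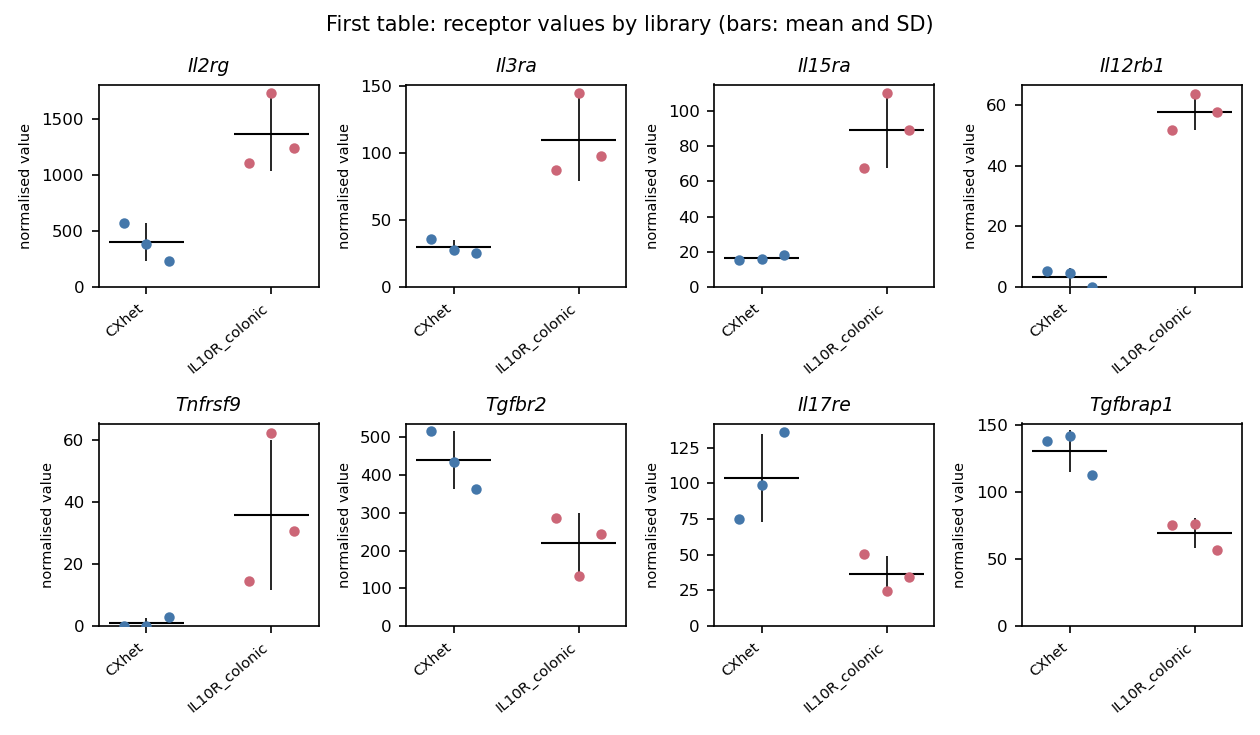
Normalised values (y axis, linear, from 0) of 8 receptor genes in the 3 CXhet and 3 IL10R_colonic libraries (x axis), 1 point per library, with the mean (horizontal bar) and SD (vertical line). The groups do not overlap in any of the 8 panels, and Il2rg lies between 1112 and 1734 in IL10R_colonic and at most at 574 in CXhet.

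The remaining interleukin and interferon receptors of the first table did not pass. Il10rb, the partner of the targeted chain, lay at 610.2, 567.6 and 439 in CXhet and 522, 391 and 424 in IL10R_colonic, overlapping, a change of -0.27 (SE 0.20). Il4ra, which binds IL-4 and IL-13, changed by -0.04 (SE 0.22), the IL-6 binding chain Il6ra by -0.57 (SE 0.39) and the decoy receptor for IL-1, Il1r2, by -0.48 (SE 0.21). Il17ra, the chain common to the IL-17 receptors, changed by 0.79 (SE 0.22). Of the interferon receptor chains, the type I chains Ifnar1 and Ifnar2 changed by -0.35 (SE 0.26) and 0.37 (SE 0.20) and the interferon-gamma chains Ifngr1 and Ifngr2 by 0.29 (SE 0.18) and -0.04 (SE 0.18). Among TNF receptors, Tnfrsf1a, the widely expressed TNF receptor with a death domain, lay at 981, 898 and 767 against 879, 849.7 and 716. Tnfrsf1b, the second TNF receptor, lay at 347, 347 and 253 against 458, 706 and 427. The values of Tnfrsf1a overlapped and those of Tnfrsf1b were all higher in IL10R_colonic, with changes of -0.11 (SE 0.20) and 0.72 (SE 0.24) (limma adjusted p = 0.759 and 0.1001).

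Downstream genes called beside these receptors lay in the JAK, SOCS and TNF pathways. Stat2, which carries type I interferon signals, rose by 0.86 (SE 0.19, limma adjusted p = 0.0278) and the kinase Jak2 by 1.08 (SE 0.24, limma adjusted p = 0.0264). Of 11 tested feedback inhibitors 2 rose, Socs1 by 2.49 (SE 0.32, limma adjusted p = 0.00332) and Cish by 1.31 (SE 0.28). The adaptor Traf1 was the 1 riser among 20 tested TNF receptor adaptors and NF-kB genes (2.44, SE 0.28, limma adjusted p = 0.00204). Outside the symbol rule, the TNF-family receptor Cd40 rose by 1.28 (SE 0.28) and the G-CSF receptor Csf3r, also on the neutrophil marker list, by 1.29 (SE 0.33). Among ligands, Il1a rose by 2.83 (SE 0.34), Tnfsf9, the partner of Tnfrsf9, by 1.02 (SE 0.19) and the activin subunit Inhba by 4.85 (SE 0.41), while Bmp2 changed by -2.15 (SE 0.47), a fall. The IL-1 antagonist Il1rn rose by 1.54 (SE 0.23), and no tested SMAD gene passed.

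Macrophage markers made up 1.90 to 3.16% of the signal in CXhet and 2.21 to 2.43% in IL10R_colonic, and epithelial markers 0.520 to 1.06% and 0.391 to 0.617%. Neutrophil markers made up 0.00591 to 0.00946% in CXhet and 0.0203 to 0.0291% in IL10R_colonic, without overlap. The neutrophil marker S100a9 was called higher by 5.42 (SE 0.80, limma adjusted p = 0.00573). Of the 2 tested dendritic markers 1 was called higher, Ccr7 by 5.10 (SE 0.90, limma adjusted p = 0.0107). The other, Batf3, was not called and its change was not above 0. Given their changes, S100a9 and Ccr7 were low in CXhet and may have passed the filter on low values only through IL10R_colonic. Their adjusted p is then no independent support for a rise. Dendritic markers, of which 2 of 6 are listed, made up 0.00719 to 0.0125% in CXhet and 0.0120 to 0.0207% in IL10R_colonic. The 1 listed T, NK and innate lymphoid marker of 13 made up 0.000411 to 0.000732% and 0.00150 to 0.00485%, without overlap. The part of these markers in the receptor changes was not tested. In sorted bulk cells, fewer cells of a type and less RNA per cell cannot be told apart. Without the library labelled IL10R_colonic 2 (6.95% of all genes called) the same 4 receptor genes were called. Without CXhet 2 (2.96%) only Il3ra was called, and without CXhet 3 (4.03%) only Il2rg and Il3ra. Without CXhet 1 (8.03%) Tgfbrap1 was no longer called. Without IL10R_colonic 3 (4.36%) Il17re and Tgfbrap1 were not called and Il17ra was. Without IL10R_colonic 1 (8.69%) Csf2rb2 and Tgfbr2 joined the 4. With all libraries 8.69% of all genes were called.

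The rescue table repeats the comparison of deficient with control macrophages in IL10R against CX. Il6ra, Tgfbr2, Csf2ra and Il10rb fell and no receptor gene rose. The 4 called genes are 4 of 26 tested, beside 9.91% of all 6612 genes, 3.87% higher and 6.03% lower. Relative to the summed macrophage markers the direction of 3 of them flips, as given below. The groups did not overlap in 9, beside 37.1% of all genes, and 8 had an unadjusted p under 0.05, beside 26.1%. The median change of the 26 was -0.34, against 0.01 over all tested genes.

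Il6ra stood at 175 and 146 in CX 1 and 3 and at 63.7, 52.9, 82.3, 91.9 and 67.6 in the 5 IL10R libraries. All 5 deficient libraries lay below both controls, and the log2 change was -1.17 (SE 0.30, n = 5 and 2, limma adjusted p = 0.0188). Tgfbr2 was 256 and 286 in CX and 153, 170.1, 191, 147 and 155 in IL10R, a change of -0.73 (SE 0.18, limma adjusted p = 0.0180). Csf2ra lay at 127 and 153 against 76.7, 104.7, 90.5, 85.8 and 93.3 and fell by 0.63 on the log2 scale (SE 0.19, limma adjusted p = 0.0431). The groups of Tgfbr2 and Csf2ra did not overlap either. Il10rb, at 207 and 206 in CX and 169, 92.3, 123, 142 and 150.4 in IL10R, also separated the groups, with a change of -0.63 (SE 0.19, limma adjusted p = 0.0356).

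Below the threshold, the type I interferon chains Ifnar2 and Ifnar1 were lower in each IL10R library than in both CX libraries, with changes of -0.74 (SE 0.24) and -0.54 (SE 0.18) (limma adjusted p = 0.0550 and 0.0646). The interferon-gamma chains changed by 0.06 (SE 0.22) for Ifngr1 and -0.32 (SE 0.18) for Ifngr2. Csf2rb changed by -0.61 (SE 0.23), Il4ra by -0.53 (SE 0.24) and Il1r2 by -0.91 (SE 0.54). Ifngr2, Csf2rb and Il1r2 were also lower in each IL10R library than in both CX libraries. Tgfbr1 changed by -0.38 (SE 0.33), Tnfrsf1a by -0.03 (SE 0.20) and Tnfrsf1b by -0.25 (SE 0.22). Il2rg and Il3ra, the risers of the first table, did not pass here. Il2rg lay at 179 and 214 in CX and 382, 277, 221, 165 and 160.9 in IL10R, with the neutrophil-marker-rich IL10R 27 highest. Il15ra, Il22ra1, Il3ra and Tnfrsf25 had means below the filter in the rescue table and were not tested. Il15ra stood at 10.4 and 14.2 in CX and 41.6, 26.96, 33.6, 19.7 and 15.3 in IL10R, without overlap, a difference of 1.03 (SE 0.37, limma adjusted p = 0.0875) when no filter was applied.

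In the surrounding pathways, Csf1r, the receptor for macrophage colony-stimulating factor and a macrophage marker, fell (log2 change -1.40, SE 0.23), as did the LIF receptor Lifr (-1.24, SE 0.32). Of 7 tested interleukin, interferon and CSF ligands 3 fell, Il10 (-1.52, SE 0.33), Il16 (-1.20, SE 0.32) and Ebi3 (-0.97, SE 0.27). Of 4 TGF-beta ligands 2 fell, Tgfb1 with a mean of 66.4 ± 10.1 against 175 ± 22.0 (SD, n = 5 and 2), a change of -1.39 (SE 0.22, limma adjusted p = 0.00156), and Gdf15 (-1.40, SE 0.34). The lymphotoxin receptor Ltbr rose by 0.63 (SE 0.19) and the death-domain adaptor Tradd by 0.79 (SE 0.19), and the SUMO ligase Pias1 fell (-0.60, SE 0.17). No JAK or STAT gene of 9 passed.

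In the same libraries 9 of 11 macrophage markers were called lower, with a median of -1.06, and the macrophage share was 0.755 to 1.03% against 1.73%, and the part of this shift in the receptor changes was not tested. Set relative to the summed macrophage markers, an alternative chosen after seeing the data that moves the median of all genes to 1.03, Tgfbr2, Csf2ra and Il10rb changed sign (0.29, 0.39 and 0.39) and Il6ra, Tgfbr2, Csf2ra and Il10rb were no longer called. On that scale 15 of the 26 receptor genes were called higher and 0 lower, beside 81% of all genes called. The calls depended on both of the 2 CX libraries. With CX 1 or CX 3 left out, 1 control library remained, and the median change of the 26 was -0.46 and -0.16. Without IL10R 61 only Il6ra and Tgfbr2 were called, beside 8.53% of all genes.

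The third comparison, IL10R_P19 against IL10R, asked what changes when macrophages lack the IL-23 subunit as well. None of the 26 tested receptor genes was called by limma or edgeR, beside 2.43% of all genes by limma, 1.92% higher and 0.514% lower. DESeq2 called 3 receptor genes, beside 6.81% of all genes. At an unadjusted limma p under 0.05 there were 7 of 26, beside 16.6% of all genes, and the groups did not overlap in 2, Tnfrsf21 and Tnfrsf12a, beside 8.64%. The median change of the 26 was 0.21, against -0.00 over all genes.

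Il6ra gave the smallest p and stood at 91.3, 137, 174 and 124 in the 4 IL10R_P19 libraries. Of these, 1, the library IL10R_P19 100, overlapped the IL10R range of 52.9 to 91.9, and the log2 change was 0.86 (SE 0.24, n = 4 and 5, limma adjusted p = 0.0614). Tgfbr2 was 151, 249, 255 and 252, with IL10R_P19 100 inside the IL10R range and the other 3 between the IL10R and CX values, a change of 0.45 (SE 0.15, limma adjusted p = 0.116). Tnfrsf21, death receptor 6, stood at 58.3, 67.6, 65.1 and 56.4 against 40.3, 35.3, 31.5, 41.8 and 47.5 in IL10R. Its groups did not overlap and the change was 0.65 (SE 0.23, limma adjusted p = 0.151). Il10rb changed by 0.38 (SE 0.15), Csf2ra by 0.32 (SE 0.15), Csf2rb by 0.30 (SE 0.19), Il4ra by 0.02 (SE 0.19) and Il1r2 by 0.82 (SE 0.43). The interferon chains changed by 0.32 (SE 0.15) for Ifnar1, 0.45 (SE 0.19) for Ifnar2, -0.08 (SE 0.17) for Ifngr1 and 0.20 (SE 0.14) for Ifngr2. Tgfbr1 changed by 0.27 (SE 0.26), Tnfrsf1a by -0.07 (SE 0.16) and Tnfrsf1b by 0.02 (SE 0.18). Outside the symbol rule Csf1r (0.82, SE 0.18, limma adjusted p = 0.0214) and Tgfb1 (0.72, SE 0.17, limma adjusted p = 0.0324) rose.

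Of the macrophage markers 6 of 11 were called higher here, with a share of 0.977 to 1.46% against 0.755 to 1.03%, and their part in the receptor values was not tested. Relative to the summed macrophage markers limma called 9 of the 26 lower and 0 higher, beside 49.4% of all genes called. Without IL10R_P19 100 limma called 4 receptor genes higher, beside 5.7% of all genes called. They were Il6ra by 1.02, Tgfbr1 by 0.66, Ifnar2 by 0.64 and Tgfbr2 by 0.63. A fit of IL10R_P19 and IL10R alone called Il6ra and Tnfrsf21, beside 3.37% of all genes.

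**Figure D3:**
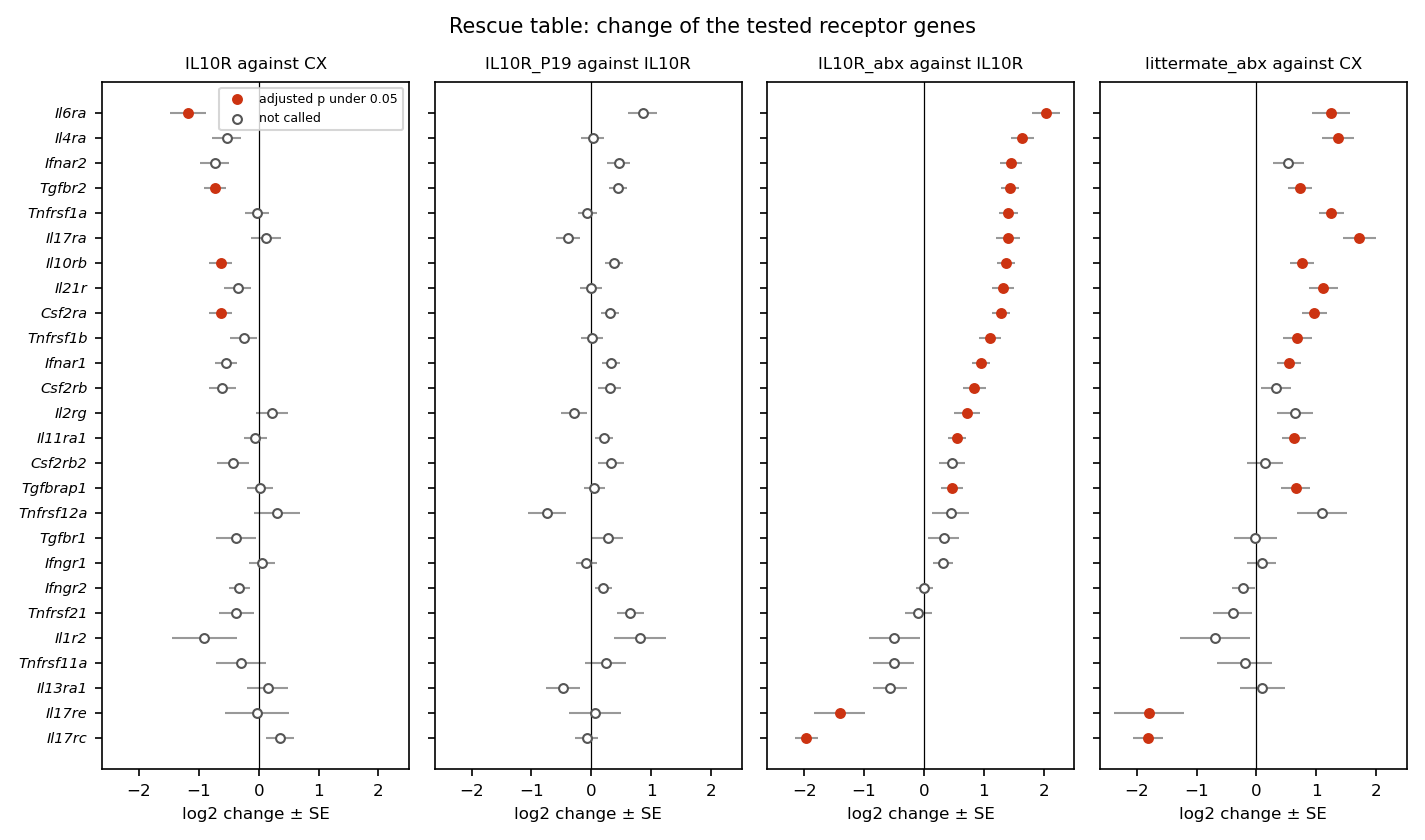
Log2 change with its SE (x axis) of the 26 tested receptor genes (y axis, ordered by their change in IL10R_abx against IL10R) in 4 comparisons of the rescue table. Filled points passed the limma test at an adjusted p under 0.05: 4 in IL10R against CX, 0 in IL10R_P19 against IL10R, 17 in IL10R_abx against IL10R and 14 in littermate_abx against CX. The panels share libraries, and relative to macrophage markers 3 of the 4 calls in the first panel and 14 of the 15 rises in the third change sign.

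Antibiotics were compared with no treatment in the deficient line, IL10R_abx against IL10R, and in controls, littermate_abx against CX. CX and the littermates are separate title groups of unstated genotype. Il10ra was 247.5 to 283.5 in CX and 138 to 191 in littermate_abx. In controls, antibiotics and any difference between these 2 control groups therefore cannot be told apart. In the deficient line 17 of 26 tested receptor genes passed, 15 higher and 2 lower, beside 57.8% of all genes, 30.6% higher and 27.3% lower, and relative to the summed macrophage markers 14 of the 15 rises turn into changes below 0. In controls 14 of 26 passed, 12 higher and 2 lower, beside 34% of all genes, 16.5% higher and 17.5% lower. At an unadjusted p under 0.05 the counts were 18 and 16, beside 61.6% and 42.9% of all genes, and groups did not overlap in 14 and 17, beside 42.1% and 62.1%. The median change of the 26 was 0.64 against 0.03 over all genes in the deficient line, and 0.59 against 0.04 in controls. The 14 genes called in controls, 100% of that list, were all called in the same direction in the deficient line, where they make up 82.4% of the list. Over all tested genes, 2056 were called in the same direction in both, 91.4% of the 2250 called in controls and 53.8% of the 3823 called in the deficient line. The comparisons share no library but share the variance estimate of 1 fit and the shift in cell markers given below.

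The risers included the ligand-binding chains for IL-6, IL-4, GM-CSF and IL-21. Il6ra stood at 294, 188, 256 and 517 in the 4 IL10R_abx libraries and at 349, 354 and 449.9 in the 3 littermate_abx libraries. Each of these libraries lay above every library without antibiotics, the highest of which was CX 1. The log2 change was 2.04 (SE 0.24, n = 4 and 5, limma adjusted p = 7.59e-07) in the deficient line, a 4.11-fold level on the log2(value + pseudocount) scale, and 1.25 (SE 0.32, n = 3 and 2, limma adjusted p = 0.00608) in controls. Il4ra stood at 407, 332, 280.4, 200.5 and 182 in IL10R and 984, 986, 653 and 783 in IL10R_abx, and at 364 and 416 in CX and 925, 1027 and 1052 in littermate_abx. Neither pair of groups overlapped, and the changes were 1.64 (SE 0.19, limma adjusted p = 7.05e-07) and 1.36 (SE 0.26, limma adjusted p = 0.000633). Csf2ra reached 169.8, 207, 226 and 295 in IL10R_abx and 274, 263 and 283 in littermate_abx, above all libraries without antibiotics, with changes of 1.28 (SE 0.15, limma adjusted p = 8.85e-07) and 0.96 (SE 0.21, limma adjusted p = 0.00162). Il21r lies beside Il4ra on chromosome 7 and rose by 1.32 (SE 0.18) and 1.12 (SE 0.24).

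Shared chains rose as well. Il10rb was 370, 354, 342 and 320 in IL10R_abx and 351, 336 and 360.3 in littermate_abx. All 7 values exceeded the highest value without antibiotics, that of CX 1, and the changes were 1.38 (SE 0.15, limma adjusted p = 2.69e-07) and 0.75 (SE 0.20, limma adjusted p = 0.00750). Il17ra, the chain common to IL-17 receptors, went from 100.1, 112, 113, 94.2 and 88.5 in IL10R to 252, 348, 161.1 and 376 in IL10R_abx, and from 98.4 and 87.7 in CX to 315, 334 and 278 in littermate_abx. These groups were apart in both lines, with changes of 1.41 (SE 0.20, limma adjusted p = 6.80e-06) and 1.72 (SE 0.27, limma adjusted p = 0.000112). Il2rg rose by 0.72 (SE 0.22) in the deficient line with overlapping libraries and changed by 0.64 (SE 0.30) in controls without passing (limma adjusted p = 0.110). Csf2rb rose by 0.84 (SE 0.19) in the deficient line and changed by 0.32 (SE 0.25) in controls, where it did not pass. Il11ra1, which in mice has near-identical copies that can share reads, rose by 0.56 (SE 0.15) and 0.63 (SE 0.20).

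Both other listed chains of the IL-17 receptor family fell. Il17rc, which pairs with Il17ra to bind IL-17A and IL-17F, stood at 247, 254, 214, 208 and 216 in IL10R and 56.6, 65.8, 39.0 and 75.0 in IL10R_abx. In controls it went from 146 and 215 in CX to 36.1, 66.4 and 51.6 in littermate_abx. There was no overlap in either line, and the changes were -1.96 (SE 0.19, limma adjusted p = 5.22e-08) and -1.81 (SE 0.25, limma adjusted p = 3.57e-05). Il17re, its neighbour on chromosome 6, lay at 28.6, 66.4, 67.9, 62.3 and 78.8 in IL10R and 30.5, 62.1, 6.78 and 14.4 in IL10R_abx, where the lowest untreated library, IL10R 27, lay below 2 antibiotic libraries. It fell from 54.9 and 63.2 to 14.5, 21.7 and 13.7 in controls, with changes of -1.41 (SE 0.43, limma adjusted p = 0.00945) and -1.79 (SE 0.59, limma adjusted p = 0.0249). Il17re passed the filter of this table, a mean of 40.4, only through the groups without antibiotics. Its mean was 28.4 in IL10R_abx and 16.6 in littermate_abx. Il22ra1, under the filter, stood at 74.1, 39.4, 43.2, 56.2 and 39.4 in IL10R and 4.35, 3.76, 6.78 and 9.61 in IL10R_abx and fell by 2.88 (SE 0.43, limma adjusted p = 1.03e-05) in the fit without the filter. The falls of Il17rc, Il17re and Il22ra1 ran beside those of all 12 epithelial markers, whose median change was -2.10, and the part of epithelial RNA in them was not tested.

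Interferon receptor chains did not move alike. Ifnar2 went from 166, 79.8, 119, 92.6 and 104 in IL10R to 368, 312, 271 and 259 in IL10R_abx, without overlap, a rise of 1.45 (SE 0.19, limma adjusted p = 2.64e-06). Ifnar1 rose by 0.95 (SE 0.15) there and by 0.55 (SE 0.20, limma adjusted p = 0.0410) in controls, where Ifnar2 changed by 0.53 (SE 0.26) and did not pass. Ifngr2 lay at 359, 285, 357, 358 and 318 in IL10R and 289.5, 338, 334 and 391 in IL10R_abx, fully overlapping, a change of 0.01 (SE 0.14). Ifngr1 changed by 0.32 (SE 0.17), and in controls Ifngr1 and Ifngr2 changed by 0.09 (SE 0.24) and -0.22 (SE 0.19). Ifnar2, Il10rb, Ifnar1 and Ifngr2 lie next to each other on chromosome 16, so the chains of this cluster that rose and the one that did not are neighbours.

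Of the TGF-beta receptors, Tgfbr2 rose from 153, 170.1, 191, 147 and 155 in IL10R to 416, 476, 446 and 428 in IL10R_abx and from 256 and 286 in CX to 506, 398 and 442 in littermate_abx. The groups were apart in both lines, with changes of 1.43 (SE 0.15, limma adjusted p = 1.46e-07) and 0.72 (SE 0.20, limma adjusted p = 0.00939). Tgfbr1 stood at 414, 571, 559, 441 and 458 against 792, 604, 517 and 556 and overlapped, with changes of 0.33 (SE 0.26) and -0.02 (SE 0.36). Tgfbrap1 rose by 0.47 (SE 0.18) and 0.65 (SE 0.24). The IL-1 decoy Il1r2 changed by -0.49 (SE 0.43) and -0.69 (SE 0.59) and did not pass.

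**Figure D4:**
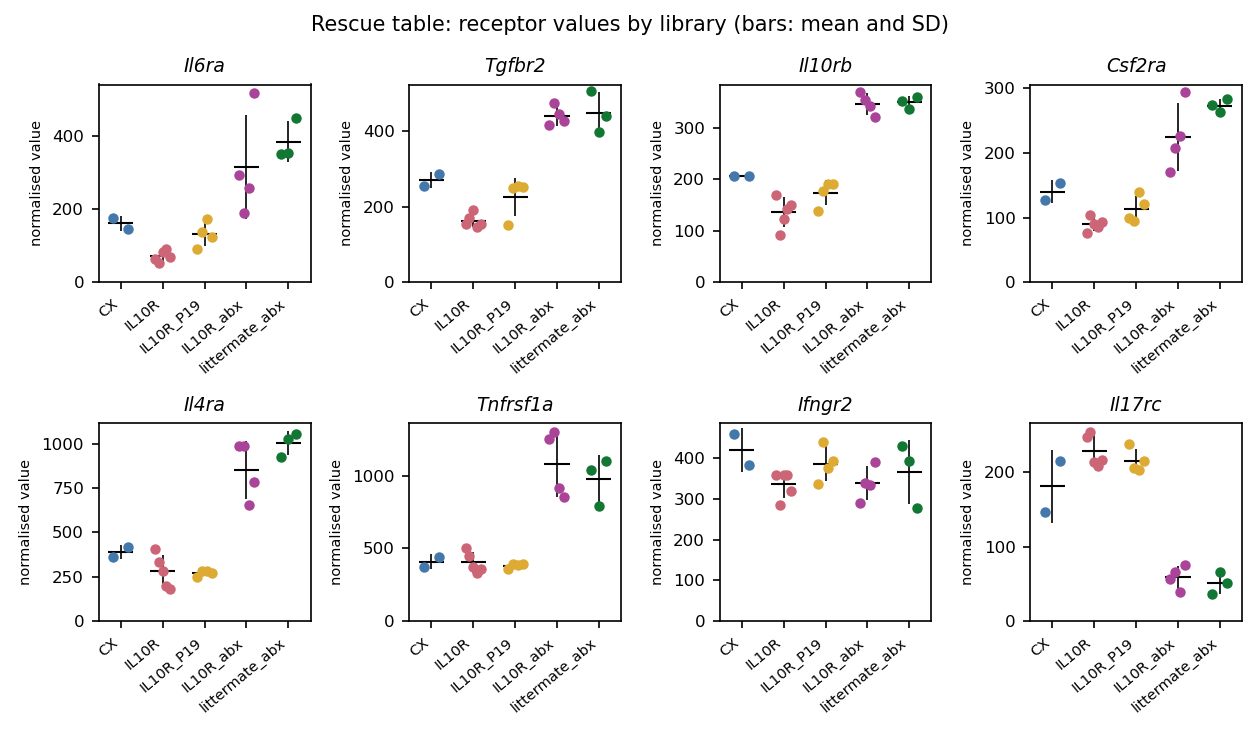
Normalised values (y axis, linear, from 0) of 8 receptor genes in the 18 libraries of the rescue table by group (x axis), 1 point per library, with the mean (horizontal bar) and SD (vertical line). Il6ra, Tgfbr2, Il10rb, Csf2ra, Il4ra and Tnfrsf1a lie highest in the 2 antibiotic groups and Il17rc lies lowest there. Ifngr2 overlaps between groups with and without antibiotics, while both CX libraries lie above every IL10R library.

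Both TNF receptors rose. Tnfrsf1a stood at 506, 446, 374, 333 and 361 in IL10R and 1254, 1301, 917 and 856 in IL10R_abx, and at 375 and 444 in CX and 1040, 792 and 1104 in littermate_abx. Every antibiotic library lay above every other library, with changes of 1.41 (SE 0.16, limma adjusted p = 3.58e-07) and 1.25 (SE 0.21, limma adjusted p = 0.000226). Tnfrsf1b went from 149.5, 105.8, 94.6, 94.2 and 94.9 to 235, 314, 171 and 217 in the deficient line and from 132 and 122 to 255, 198 and 169 in controls. It too was higher in every antibiotic library, with changes of 1.10 (SE 0.18, limma adjusted p = 2.76e-05) and 0.68 (SE 0.24, limma adjusted p = 0.0347). Tnfrsf25, also called death receptor 3 and under the filter, stood at 6.50, 9.33, 6.17, 6.83 and 11.3 in IL10R and 43.5, 28.2, 39.0 and 35.5 in IL10R_abx. The groups were far apart, and the change was 2.07 (SE 0.32, limma adjusted p = 1.67e-05) in the fit without the filter. Tnfrsf11a, Tnfrsf12a and Tnfrsf21 did not pass in either line.

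The 250 bases upstream of the annotated starts of Tnfrsf1a and Tnfrsf1b are shown because these 2 genes rose together and both windows hold a match to the STAT-binding motif TTCNNNGAA (GAS). The sequences are from RefSeq, build GRCm38.p6, read 5′ to 3′ on the strand of the gene, with motif matches in capitals. Tnfrsf1a is on the plus strand at chr6:125349473-125349722 and Tnfrsf1b on the minus strand at chr4:145246871-145247120.
Tnfrsf1a: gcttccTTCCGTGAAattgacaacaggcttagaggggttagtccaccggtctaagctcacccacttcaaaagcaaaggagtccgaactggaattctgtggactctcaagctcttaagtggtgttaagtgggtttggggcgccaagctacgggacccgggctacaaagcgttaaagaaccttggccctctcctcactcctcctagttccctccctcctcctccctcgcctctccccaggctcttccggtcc
Tnfrsf1b: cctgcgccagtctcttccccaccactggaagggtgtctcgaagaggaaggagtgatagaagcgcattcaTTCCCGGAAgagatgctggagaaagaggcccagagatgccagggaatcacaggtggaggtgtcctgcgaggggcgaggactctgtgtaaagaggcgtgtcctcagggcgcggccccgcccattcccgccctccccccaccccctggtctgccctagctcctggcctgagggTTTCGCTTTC

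The match begins 244 bases before the start in Tnfrsf1a and 181 bases before it in Tnfrsf1b, and the second stretch of capitals in Tnfrsf1b, 10 bases before the start, is the interferon-response motif GAAA, any 2 bases, GAAA (ISRE) on the other strand. Both strands were searched. RefSeq windows were found for 28 of the 32 receptor genes, 34 windows in all since some genes have several starts. GAS matches lay in 7 of these windows, of Csf2rb2, Ifnar2, Il1r2, Tnfrsf1a, Tnfrsf1b, Tnfrsf25 and Tnfrsf9, and in 7.02% of all 32851 windows of that length. The ISRE was matched in 1 member window and 2.98% of all windows, the NF-kB motif GGGA, any base, TTTCC in 1 (Ifngr2) and 0.356%, and the PU.1 motif GAGGAAGT in 0 and 2.44%. Of the tested genes with a GAS match, Tnfrsf1a and Tnfrsf1b were called with antibiotics in both lines, Ifnar2 in the deficient line, and Il1r2 and Csf2rb2 in neither. A match is a description of the letters and not a binding site.

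Ligands and adaptors of the same pathways moved beside the receptors. In the deficient line 14 of 19 tested TNF receptor adaptors and NF-kB genes rose and 1 fell, with a median of 1.04, and in controls 13 rose and 1 fell, with a median of 1.28. Ripk1, the kinase recruited to TNF receptor 1, rose by 1.36 (SE 0.14, limma adjusted p = 1.39e-07) and 1.62 (SE 0.19, limma adjusted p = 9.20e-06), and the inhibitor of apoptosis Birc3 rose by 1.72 (SE 0.20) in the deficient line. Tradd, an adaptor that binds the death domain of TNF receptor 1, was the gene that fell in both, with a mean of 84.3 ± 25.0 against 197 ± 3.27 in IL10R_abx and IL10R (SD, n = 4 and 5). All 4 tested TNF ligands rose in the deficient line, Tnfsf12 by 2.17 (SE 0.17), Tnfsf9 by 2.40 (SE 0.26), Tnf by 1.75 (SE 0.39) and Tnfsf13 by 0.34 (SE 0.14), and Tnfsf9 and Tnfsf12 rose in controls. Of 9 JAK and STAT genes 7 rose and 1 fell in the deficient line and 6 rose in controls. Stat3, which carries IL-6 and IL-10 signals, rose by 1.20 (SE 0.15, limma adjusted p = 1.69e-06) and 1.80 (SE 0.21, limma adjusted p = 8.08e-06), and its target and inhibitor Socs3 by 2.04 (SE 0.24, limma adjusted p = 6.92e-07) and 1.85 (SE 0.32, limma adjusted p = 0.000273). Other cytokine receptor genes outside the symbol rule rose in 6 of 6 cases in the deficient line and 5 of 6 in controls, among them Lifr by 2.39 (SE 0.26) and the thymic stromal lymphopoietin receptor Crlf2 by 1.35 (SE 0.18). These 6 include Csf1r, which is also a macrophage marker, and Csf3r, which is also a neutrophil marker. Of the TGF-beta ligands Gdf15 rose by 3.93 (SE 0.27) and 2.71 (SE 0.37) and Tgfb1 by 1.61 (SE 0.17) in the deficient line. Il10 rose by 2.27 (SE 0.26, limma adjusted p = 5.70e-07) in the deficient line. Of 10 SMAD genes 3 rose and 1 fell in the deficient line and 2 rose in controls, and of 8 IL-1 receptor signalling genes 3 and 2 rose.

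All 11 macrophage markers rose in the deficient line, with a median of 1.70, and 7 of 11 rose in controls, with a median of 0.75, while all 12 epithelial markers fell in both, and the part of these shifts in the receptor changes was not tested. Divided by the summed macrophage markers, the alternative chosen after seeing the data, the median of all genes moves to -1.63 in the deficient line and -0.65 in controls. Every receptor gene called higher in the deficient line but Il6ra then has a change below 0, from -0.03 for Il4ra to -1.19 for Tgfbrap1, and none is called higher. The median of the 26 is then -1.02. In controls the median of the 26 becomes -0.11 and only Il17ra is called higher. The labels name no batch, so antibiotics and any batch that ran with them cannot be told apart. In controls the same holds for antibiotics and the change from CX to the littermates. The count in controls rests on 2 CX libraries.

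Deficient and littermate macrophages were also compared under antibiotics, IL10R_abx against littermate_abx. No receptor gene of 26 was called by limma, edgeR or DESeq2, beside 0.0302% of all genes by limma, 0.0151% higher and 0.0151% lower. None had an unadjusted limma p under 0.05, beside 15.1% of all genes, and the groups overlapped in all 26, beside 7.86% of all genes without overlap. The largest changes were -0.71 (SE 0.49) for Il1r2, -0.61 (SE 0.38) for Tnfrsf11a, the receptor of RANK ligand, and -0.52 (SE 0.32) for Il13ra1. The 4 genes that were lower in IL10R than in CX changed by -0.38 (SE 0.27) for Il6ra, -0.02 (SE 0.17) for Tgfbr2, -0.31 (SE 0.18) for Csf2ra and -0.01 (SE 0.17) for Il10rb. The other named receptors changed by -0.25 for Il4ra, -0.14 for Ifnar1, 0.19 for Ifnar2, 0.29 for Ifngr1, -0.10 for Ifngr2, -0.08 for Csf2rb, 0.13 for Tnfrsf1a, 0.16 for Tnfrsf1b and -0.04 for Tgfbr1.

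The difference between these genotype effects without and with antibiotics, which is also the difference between the antibiotic effects in the 2 lines, was tested as an interaction. Its controls were CX without antibiotics and the littermates with them, so it also holds any difference between these groups. No receptor gene was called by limma, edgeR or DESeq2, beside 0.106% of all genes by limma, and 3 had an unadjusted limma p under 0.05, beside 10.6% of all genes. The smallest p were those of Ifnar2 at -0.92 (SE 0.32, limma adjusted p = 0.264), Tgfbr2 at -0.71 (SE 0.25, limma adjusted p = 0.267) and Il10rb at -0.62 (SE 0.25, limma adjusted p = 0.373), where a value below 0 means a lower deficient-to-control ratio without antibiotics. Relative to the summed macrophage markers, limma called 7 of the 26, each above 0, beside 54% of all genes. So without that scaling no receptor gene was shown to respond to antibiotics differently in the deficient line, nor shown to respond alike.

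In the neutrophil table, ko_igg against wt compares deficient with control chimeras. Tnfrsf12a, the receptor for the TNF ligand TWEAK, rose, and was the 1 receptor gene of 26 to pass, beside 9.19% of all 6594 tested genes, 5.73% higher and 3.46% lower. At an unadjusted p under 0.05 there were 8, beside 27.7%, and groups did not overlap in 8, beside 28.6%. It stood at 74.4, 77.9, 87.5 and 71.3 in wt 1 to 4 and 249, 237 and 144 in ko_igg 14, 16 and 18. All 3 ko_igg libraries lay above all wt libraries, and the log2 change was 1.38 (SE 0.23, n = 3 and 4, limma adjusted p = 0.00494). The median change of the 26 was -0.24, against 0.06 over all tested genes.

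Library wt 1 stood apart for many receptors and was the highest wt library for Il6ra, Tgfbr1, Il10rb and the chains of the GM-CSF and interferon receptors. Il6ra lay at 828, 138, 191 and 138 in wt and 66.9, 44.8 and 29.6 in ko_igg. Even the lowest wt value exceeded every ko_igg value, but the change of -2.37 (SE 0.72) did not pass (limma adjusted p = 0.0646). Tgfbr1 lay at 1866, 544, 696 and 586 in wt and 289, 208 and 443 in ko_igg, without overlap and without passing (-1.42, SE 0.42, limma adjusted p = 0.0568). Tnfrsf1b was 589, 207, 251 and 214 in wt and 422, 476 and 444 in ko_igg, so that wt 1 lay above all ko_igg libraries and wt 2 to 4 below them. Without wt 1, limma called 6 receptor genes: Tnfrsf12a by 1.36, Tnfrsf1b by 1.00, Il2rg by 0.92 and Tnfrsf1a by 0.50 higher, and Il17re by -1.54 and Tgfbr1 by -1.02 lower. The share of all genes called in that fit is not given here, so this count is no result about receptors in particular.

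With all libraries the remaining receptors changed as follows, none passing. Il10rb changed by -0.15 (SE 0.19), Il4ra by 0.27 (SE 0.39) and Il1r2 by -0.51 (SE 0.65). Csf2ra changed by -0.51 (SE 0.31), Csf2rb by -0.42 (SE 0.54) and Tgfbr2 by -0.69 (SE 0.24). Ifnar1 changed by -0.58 (SE 0.24), Ifnar2 by -0.45 (SE 0.29), Ifngr1 by 0.42 (SE 0.19) and Ifngr2 by -0.05 (SE 0.17). Tnfrsf1a changed by 0.39 (SE 0.17) and Tnfrsf1b by 0.65 (SE 0.35). Il13ra1, Il15ra and Il3ra were under the filter of this table and were not tested. Il15ra lay at 32.7, 29.3, 20.2 and 41.9 in wt and 89.5, 92.6 and 77.4 in ko_igg, with the lowest ko_igg library well above the highest wt library. In the fit without the filter it rose by 1.49 (SE 0.25, limma adjusted p = 0.00464).

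Among TNF ligands 3 of 5 tested rose in ko_igg, Ltb by 2.83 (SE 0.39, limma adjusted p = 0.00233), Tnfsf9 by 2.35 (SE 0.33) and Tnf by 2.31 (SE 0.34), and the lymphotoxin receptor Ltbr, which binds complexes containing Ltb, rose by 0.62 (SE 0.17). The feedback inhibitor Socs1 rose by 2.79 (SE 0.35, limma adjusted p = 0.00120), Socs2 (-1.25, SE 0.26) and the inhibitory Smad7 (-1.06, SE 0.21) fell, and the protease Casp8 rose by 0.81 (SE 0.20). No JAK or STAT gene of 9 passed. T, NK and innate lymphoid markers, of which 3 of 13 were listed, made up 0.00791 to 0.0105% of the signal in ko_igg and 0.00150 to 0.00192% in wt, and their part in these values was not tested. Macrophage markers made up 0.767 to 1.08% in ko_igg and 0.988 to 2.84% in wt. Neutrophil markers made up 0.0244, 0.0380 and 0.00820% in ko_igg 14, 16 and 18 and 0.00460 to 0.00885% in wt, and S100a9 was called higher by 4.96 (SE 1.36, limma adjusted p = 0.0474). S100a9 may have passed the filter on low values only through the ko groups, so this is no independent support for a rise. Library ko_igg 18 had both the lowest Tnfrsf12a value and the lowest neutrophil share of its group, and the part of these markers in the Tnfrsf12a rise was not tested. Tnfrsf12a kept its direction under each alternative run but was not called by edgeR on the 8 libraries with recovered reads (edgeR adjusted p = 0.0805) or relative to macrophage markers (limma adjusted p = 0.110).

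**Figure D5:**
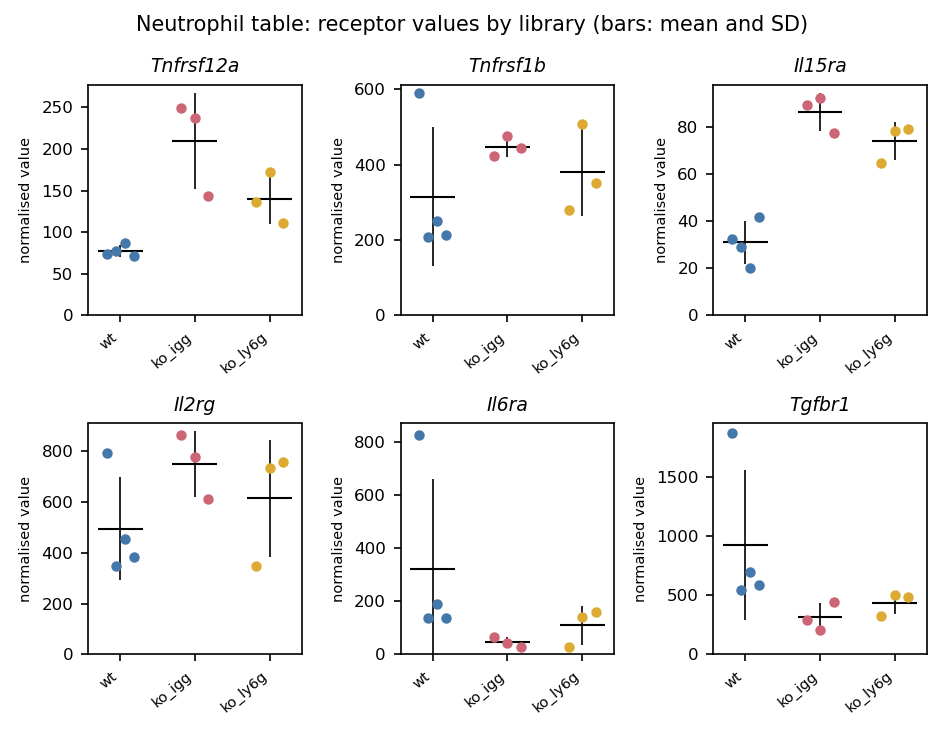
Normalised values (y axis, linear, from 0) of 6 receptor genes in the 4 wt, 3 ko_igg and 3 ko_ly6g libraries of the neutrophil table (x axis), 1 point per library, with the mean (horizontal bar) and SD (vertical line). Tnfrsf12a and Il15ra are higher in each ko_igg library than in each wt library, and wt 1 is the highest wt library for Tnfrsf1b, Il2rg, Il6ra and Tgfbr1.

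The last comparison, ko_ly6g against ko_igg, asked what changes in deficient macrophages under antibody against neutrophils, as the titles give it. No gene of 6594 was called by limma (0%), and neither edgeR nor DESeq2 called any of the 26 receptor genes. At an unadjusted limma p under 0.05 there was 1 receptor gene, beside 1.93% of all genes, and groups overlapped in all 26, beside 7.4% of all genes without overlap. The gene was Tnfrsf12a, at 136, 172 and 111 in ko_ly6g 5, 6 and 7, of which 1 value overlapped the ko_igg range and all 3 exceeded the wt values, a change of -0.56 (SE 0.24, n = 3 and 3, limma adjusted p = 1.00). Il6ra lay at 26.9, 140 and 162, spread over a wider range than in ko_igg, with a change of 0.92 (SE 0.77). Il10rb changed by -0.10, Il4ra by -0.18, Il1r2 by -0.12, Csf2ra by 0.19, Csf2rb by -0.12, Tnfrsf1a by 0.01 and Tnfrsf1b by -0.28. The interferon chains changed by -0.18 for Ifnar1, 0.02 for Ifnar2, -0.30 for Ifngr1 and -0.11 for Ifngr2, and the TGF-beta receptors by 0.52 for Tgfbr1 and -0.13 for Tgfbr2. Neutrophil markers stood at 0.00820 to 0.0380% of the signal in ko_igg and 0.00510 to 0.0497% in ko_ly6g.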

How the data were processed

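Sorted macrophages were lysed, polyadenylated RNA was captured on oligo(dT) beads and amplified by in vitro transcription, per the labels' protocols. The submitters' processing notes name mm9 as the build and HISAT 0.1.6, HOMER and bcl2fastq as tools, without roles; annotation and strand use were not stated there. The deposited signal is a gene's reads scaled by a library-wide factor, as the values themselves show. Dividing it by the worth of 1 read gave whole reads, within 0.01 read, for 100% of listed genes in each of the 34 libraries. Reads were nevertheless used for only 32 of them. An earlier check of the columns had not accepted ko_igg 16 and wt 3, and that decision was kept. Depth limits the precision of low genes, and amplified reads are not independent molecules.

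Each table was tested alone with limma 3.58.1 (R 4.3.3, mean-variance trend, robust variances) on log2(value + pseudocount), with pseudocounts of 1.31, 0.997 and 0.983 in the first, rescue and neutrophil table. On this scale the change of a low gene is understated. A filter removed the 25% of genes with the lowest means before testing (6766, 6612 and 6594 were tested). Each fit held all groups of its table, and a Benjamini-Hochberg adjusted p under 0.05 over all tested genes was called. Alternatives included edgeR 4.0.16 and DESeq2 1.42.0 on recovered reads. The main limma fit and the edgeR and DESeq2 fits were run on simulated counts for the first comparison of each table. Other comparisons and settings were not simulated, and the outcome is not given here. Groups came from the titles. Unnamed rows were left out (15399 in the first table, 15605 in the rescue table and 0 in the neutrophil table). The 39 within-group pairs of libraries with recovered reads each differed by more than counting noise (chi-square per degree of freedom at least 3.58), and pairs with ko_igg 16 or wt 3 were not compared.

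The members and lists were chosen with earlier results of these data known. Named genes are every called member, up to 8 with values per comparison, 14 listed receptors of main cytokines whether called or not, and up to 4 called genes per pathway list. A result that this rule would name is not reported here. Window orientation was checked against GENCODE M21: for 28 of 34 windows the 30 bases after the start lie in a transcript of the gene, and for 0 on the other strand.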

Additional observations from a re-analysis of the deposited data

Results flagged for a closer look

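In groups of 4 or 5 libraries, 13 receptor values lay farther from the rest of their group than Dixon's critical value allows (0.829 of the range for 4 libraries and 0.710 for 5). The 26 tested receptor genes of the table were each checked in IL10R, IL10R_P19, IL10R_abx and wt. Chance alone flags about 1 such check in 20, and the share over all genes was not taken. Of these, 9 belong to library wt 1 of the neutrophil table, which also stood apart by its macrophage markers, 2.84% of the signal against 0.988 to 1.31% in wt 2 to 4. In wt 1, Tgfbr1 was 1866 (543.6 to 697 in the other wt libraries), Il6ra 828 (137 to 191), Csf2ra 628 (278 to 314), Tnfrsf1b 589 (207 to 251), Il21r 432 (132 to 168), Ifnar1 405 (225 to 240.2), Il17ra 283 (128 to 147), Tnfrsf1a 964 (709.5 to 729) and Tgfbrap1 152 (98.6 to 105.4). Whether the marker difference accounts for these values was not tested. The flags of the rescue table are about as many as chance gives at that rate. There IL10R 27 was high for Tnfrsf12a at 87.1 (31.1 to 47.3 in the other IL10R libraries) and for Tnfrsf1b at 149 (94.2 to 105.8), and it held the highest share of neutrophil markers. IL10R_P19 100 was low for Tgfbr2 at 151 (249 to 255), and IL10R_abx 160 was low for Tgfbrap1 at 82.7 (107.2 to 110.2 in the other 3).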

How the results depend on the processing

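Counts of called receptor genes held within 1.5 times under most settings. IL10R_colonic against CXhet went from 4 to 7 with no filter, 8 with DESeq2 and 9 with the replicate block, and from 1 to 6 without single libraries. The share of all genes called there moved as well, from 8.69% to 14% with DESeq2 and 11.9% with the replicate block. Same-numbered libraries of that table had deviations correlated at -0.06, 0.15 and 0.35, so the numbers were not taken to pair them. No paired analysis was possible in the rescue and neutrophil tables because the groups compared share fewer than 2 numbers. IL10R against CX gave 2 to 4 without single IL10R libraries, beside 6.25 to 11.2% of all genes. Without CX 1 or CX 3 only 1 CX library remained, so no count is given for such fits. IL10R_P19 against IL10R gave 3 with DESeq2, 2 in the 2-group fit and 0 to 4 without single libraries, the last beside 0.257 to 5.7% of all genes. For littermate_abx against CX the count was 9 to 13 without single littermate_abx libraries. For ko_igg against wt it was 2 with no filter or DESeq2, 0 with edgeR and 1 to 6 without single libraries. Shares of all genes are not given here for these last counts, so they are no result about receptors in particular. Leaving out IL10R_P19 100 gave the 4, and leaving out wt 1 the 6. Division by the macrophage markers, chosen after seeing the data, gave 15 in IL10R against CX (all higher), 9 in IL10R_P19 against IL10R (all lower), 5 in littermate_abx against CX (1 higher, 4 lower), 7 in the interaction (all above 0) and 0 in ko_igg against wt, and shifted the median of all genes by the amounts in the report (-0.53 in IL10R_P19 against IL10R, 0.94 in the interaction and 0.68 in ko_igg against wt). Among genes called with or without a setting, each sign change (36) came from this one; the cause was not tested beyond its own construction, which moves all genes together. Genes called in neither also changed sign, 59 times under this setting and 131 times over the other settings. Of the called genes, the reversed values in IL10R against CX were 0.39 for Csf2ra, 0.59 Csf2rb2, 0.48 Ifnar1, 0.70 Ifngr2, 0.39 Il10rb, 0.95 Il11ra1, 0.66 Il21r, 0.64 Tgfbr1, 0.29 Tgfbr2, 0.99 Tnfrsf1a and 0.77 Tnfrsf1b. In IL10R_abx against IL10R they were -0.38 for Csf2ra, -0.83 Csf2rb, -1.19 Csf2rb2, -0.71 Ifnar1, -0.21 Ifnar2, -1.35 Ifngr1, -1.66 Ifngr2, -0.29 Il10rb, -1.09 Il11ra1, -0.26 Il17ra, -0.34 Il21r, -0.96 Il2rg, -0.03 Il4ra, -1.34 Tgfbr1, -0.24 Tgfbr2, -1.19 Tgfbrap1, -1.19 Tnfrsf12a, -0.26 Tnfrsf1a and -0.56 Tnfrsf1b. In littermate_abx against CX they were -0.15 for Ifnar1, -0.07 Il11ra1, -0.05 Tgfbrap1 and -0.02 Tnfrsf1b, in IL10R_P19 against IL10R -0.51 for Tnfrsf1b, and in the interaction 0.80 for Tnfrsf1a.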

Other observations

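Deficient and control libraries were compared in all 3 tables, which share no library, and the changes of some receptors can be set side by side. The genes here were chosen after their values were seen, the tables were normalised separately, and no test was made across them. Tgfbr2 changed by -1.04 (SE 0.29) in IL10R_colonic against CXhet, by -0.73 (SE 0.18) in IL10R against CX and by -0.69 (SE 0.24) in ko_igg against wt, called in the second. Il6ra, the IL-6 binding chain, changed by -0.57 (SE 0.39), -1.17 (SE 0.30) and -2.37 (SE 0.72), called in the second. Ifnar1 changed by -0.35 (SE 0.26), -0.54 (SE 0.18) and -0.58 (SE 0.24), called in none. Il15ra, below the filter in all 3 tables, changed by 2.32 (SE 0.28), 1.03 (SE 0.37) and 1.49 (SE 0.25) in fits without a filter, and each deficient library lay above each control library of its table. Il2rg changed by 1.83 (SE 0.33), 0.22 (SE 0.27) and 0.66 (SE 0.34), called in the first.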
